A study of Mus musculus with 12 samples.

Results

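The response of Zmpste24-deficient mouse lungs to mechanical ventilation was taken as the difference, gene by gene, between 3 arrays of ventilated and 3 arrays of intact Zmpste24-/- lungs, 6 of the 12 arrays in the study. The other 6 arrays were wild type lungs, 3 intact and 3 ventilated, which entered the estimate of the spread for every test and were otherwise used to compare the response between genotypes. Zmpste24 is the metalloprotease that trims the farnesylated precursor of lamin A, a protein of the nuclear envelope. All mice were female and 10 weeks old, and each array held RNA from whole lung labelled as 1 biological replicate. Ventilated mice received 2.5 hours of pressure-controlled breaths at 15 cmH2O with no end-expiratory pressure, 100 breaths per minute, equal inspiration and expiration and an inspired oxygen fraction of 0.21. Intact mice had no procedure, so anything that came with ventilation, such as anaesthesia or handling, cannot be told apart from it. Neither the strain, nor the making of the Zmpste24 allele, nor the hour of tissue collection is given in the sources used here.

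Cyclic stretch of the lung is known to reach every layer of the alveolar wall. Stretched epithelium and endothelium switch on immediate early transcription factors within minutes, then chaperones, antioxidant enzymes and inflammatory mediators within hours, and neutrophils gather in the capillaries. A short experiment of this kind reads mostly the first waves of transcription and the decay of short-lived messages.

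Values are deposited log2 expression levels. Differences are ventilated minus intact on that scale, with the standard error after the ± sign, and a gene was called higher or lower at a limma adjusted p under 0.05. Levels of different genes depend on their probes and were not set against each other. The 6 Zmpste24-/- arrays had medians between 5.35 and 5.39. Zmpste24 itself read 5.91, 5.31 and 5.44 in intact and 5.01, 5.73 and 5.43 in ventilated Zmpste24-/- lungs, against 8.50 to 9.28 in the 6 wild type arrays. The lung's own markers were present, with Sftpc of type 2 cells at 13.10 to 13.25, Ager of type 1 cells at 12.36 to 12.59 and the airway marker Scgb1a1 at 13.24 to 13.30 in the 6 arrays. In whole lung, fewer cells of a type and less RNA per cell cannot be told apart, which touches every lower gene below. Of the 73 small nucleolar RNAs 4 were higher and 3 lower. Those counts moved between 2 and 4 and between 1 and 6 with 1 Zmpste24-/- array left out. The mean of this list ran from 8.53 to 8.70 in intact and from 8.38 to 8.60 in ventilated Zmpste24-/- lungs. Wild type means were lower, 7.89 to 7.95 in intact and 8.0 to 8.25 in ventilated lungs. What set the genotypes apart in this list was not tested. No member of the thymus, heart, skeletal muscle, liver or nerve lists passed in this comparison, although heart markers varied between arrays. Their mean was 8.11, 6.31 and 7.10 in intact and 6.60, 7.22 and 7.19 in ventilated Zmpste24-/- lungs. Wild type intact array 2, which enters the comparison of genotypes, stood apart in liver markers, at 7.21 against 4.61 to 5.70 in the other arrays. The part of these tissues in the results was not tested. Of 460 called members of the lists and named genes 139 lost the call in at least 1 of the 12 fits that left out 1 array, all of them with an adjusted p of 0.0098 or more in limma.

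Of 22180 genes, 3641 (16.4%) were called, 1972 (8.89%) higher and 1669 (7.52%) lower. The split was 2380 higher and 1281 lower when each array's median was subtracted first. At least 2-fold changes were fewer and leaned upward, with 262 genes higher (1.18%) and 69 lower (0.311%). The 3 ventilated and 3 intact arrays did not overlap for 7414 genes (33.4%), and 3597 of them were also called (16.2%). The median difference over all genes was -0.01 and the median size among called genes 0.49. At an unadjusted p under 0.05 the count was 6067 (27.4%). These shares are the background against which each family is read.

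**Figure D1:**
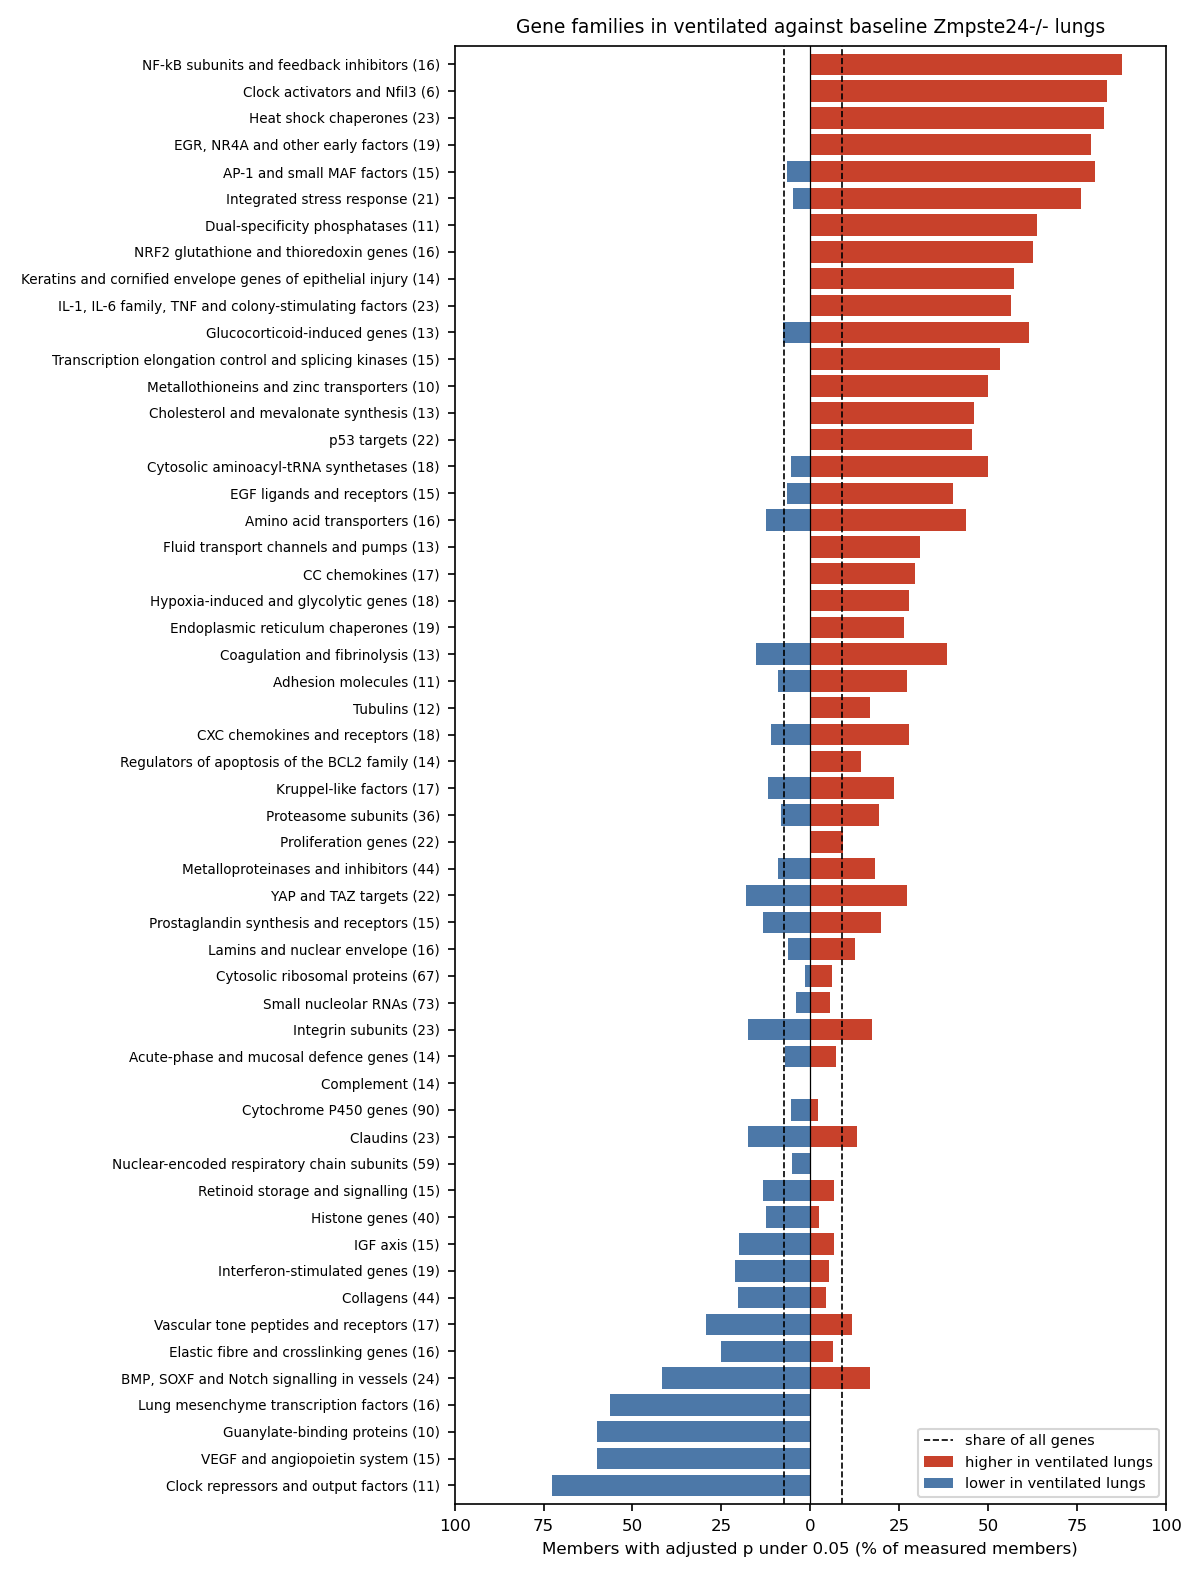
Share of the measured members of each gene family (number in brackets) that were higher (red, to the right) or lower (blue, to the left) in ventilated than in intact (baseline) Zmpste24-/- lungs at adjusted p under 0.05, in percent. Dashed lines mark the shares over all 22180 genes, 8.89% higher and 7.52% lower; NF-kB genes (14 of 16) reach farthest to the right and clock repressors (8 of 11) farthest to the left.

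**Figure D2:**
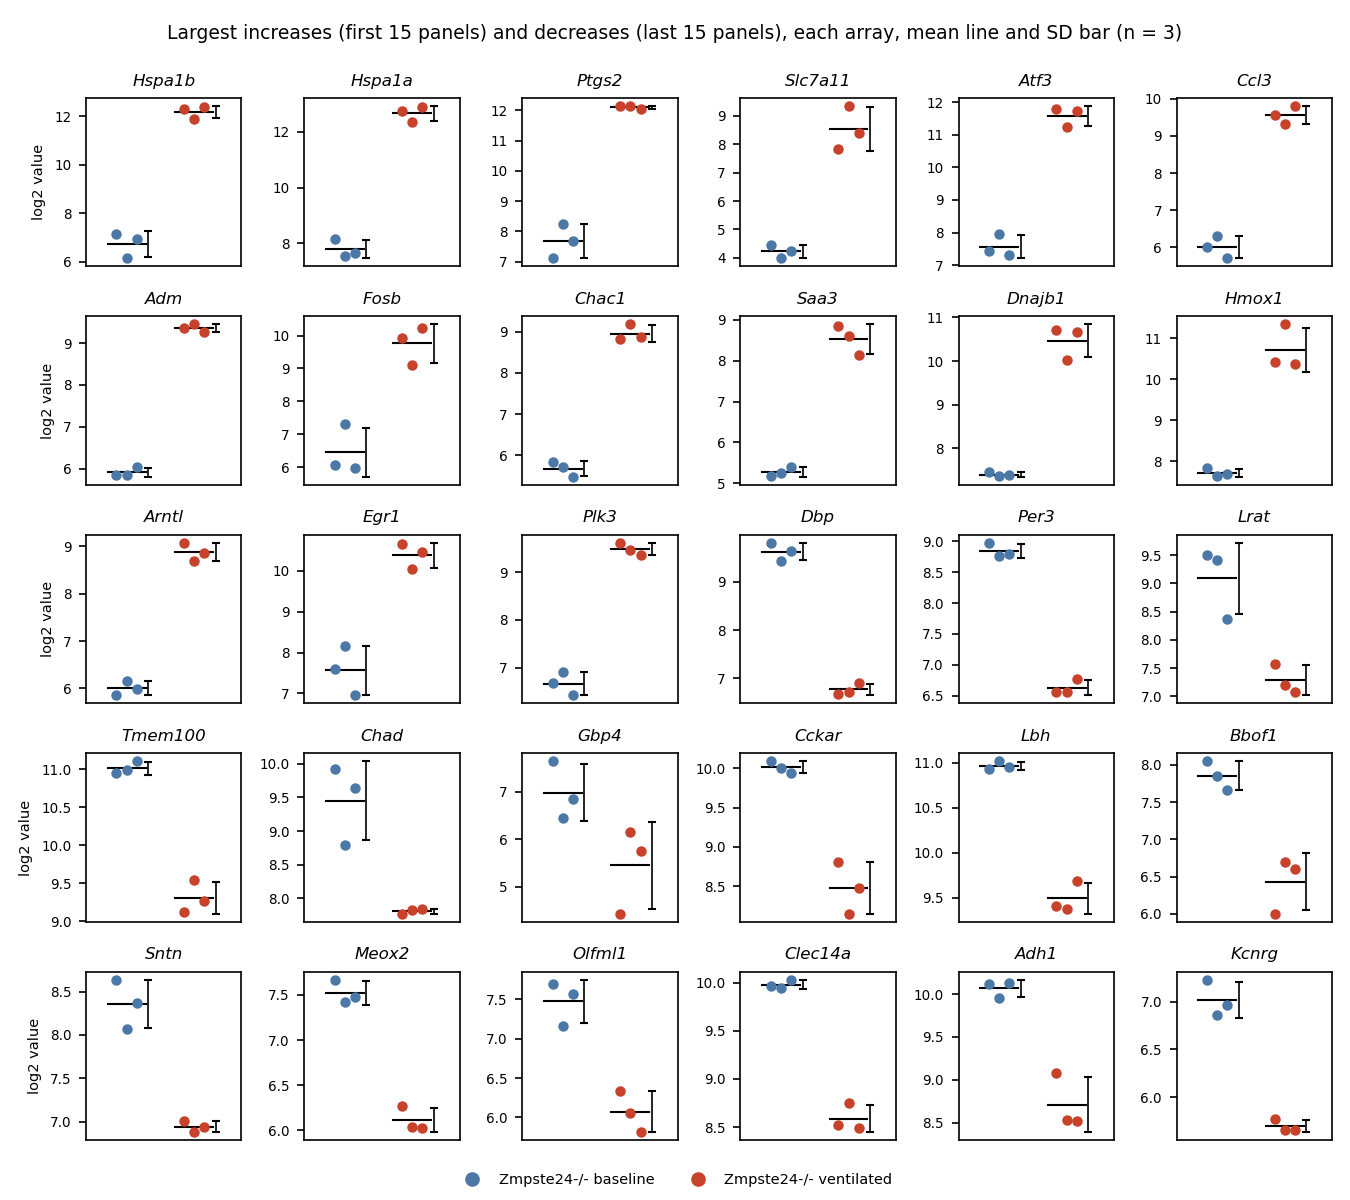
Deposited log2 values of the 15 genes that rose most and the 15 that fell most, 1 point per array, with the mean as a line and the SD (n = 3) as a bar beside it. In each of the 30 panels the 3 ventilated arrays (red) lie on one side of the 3 intact arrays (blue), which was part of how these genes were chosen; vertical axes differ between panels and do not start at 0.

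Chaperones of the heat shock family keep other proteins folded and are switched on by heat shock factor when unfolded protein accumulates. Of 23 measured members 19 rose and none fell, with a median of 1.09. The inducible HSP70 gene Hspa1b read 7.12, 6.13 and 6.92 in intact and 12.31, 11.91 and 12.37 in ventilated lungs, a difference of 5.47 ± 0.52 (adjusted p = 1.47e-05). The near-identical Hspa1a went from 8.15, 7.54 and 7.66 to 12.75, 12.35 and 12.89, so the pair rose together, and how much of the signal belongs to each copy is uncertain. Dnajb1, the HSP40 that feeds clients to HSP70, moved from 7.46, 7.36 and 7.38 to 10.70, 10.03 and 10.67. Hsph1, the nucleotide exchange factor of HSP70, rose by 2.36 ± 0.32 and the small heat shock protein Hspb8 by 1.35 ± 0.13. The co-chaperones Chordc1 (1.33 ± 0.15), Bag3 (1.21 ± 0.13), Stip1 (1.12 ± 0.15) and Cacybp (1.09 ± 0.13) followed, beside inducible HSP90, Hsp90aa1 (1.27 ± 0.12). The mitochondrial pair Hspd1 (1.28 ± 0.16) and Hspe1 (0.82 ± 0.14) also rose. Constitutive Hspa8 gained 0.69 ± 0.14 from an intact level of 11.58 to 11.69. Members that did not pass were Cryab at -0.14, Fkbp4 at 0.16, Hsf2 at 0.31 and Dnajb5 at 0.32.

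The binding site of heat shock factor is built of inverted GAA and TTC units, so the 250 bases before the transcription start of each member were searched in the RefSeq promoter table (GRCm38.p6) on both strands. The full site of 3 units (GAA, any 2 bases, TTC, any 2 bases, GAA) was present in 2 of the 17 promoters of members that rose, in 0 of 3 of members that did not, and in 0.506% of all 16990 genes with a promoter. The 2 hits were the same stretch, because Hspd1 and Hspe1 are transcribed away from each other from 1 shared region. The shorter pair GAANNTTC, which is contained in the full site, was present in 5 of those 17, in 1 of 3 and in 7.02% of all genes. Stretches of 3 promoters are shown because they belong to the genes with the largest increase and to the pair that shares its promoter, with the searched motif in capitals.
Hspa1a, chr17:34972243-34972270, minus strand: gaaactgctgGAAGATTCctggccccaa
Hspa1b, chr17:34959325-34959352, minus strand: gaaactgctgGAAGATTCctggccccaa
Hspe1, chr1:55088049-55088086, plus strand: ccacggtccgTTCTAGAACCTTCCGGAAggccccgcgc
The Hspa1a and Hspa1b stretches are identical, as are many bases of these copies, and in Hspe1 a pair of overlapping full sites makes up the capitals. A match says only that these letters stand there.

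Immediate early factors, transcription factors made without new protein synthesis, formed the second large group. Among AP-1 and small MAF factors 12 of 15 rose and 1 fell, with a median of 1.25. Atf3, an AP-1 partner induced by many stresses, read 7.43, 7.97 and 7.30 in intact and 11.80, 11.22 and 11.71 in ventilated lungs (4.01 ± 0.25, adjusted p = 7.3e-07). Fosb stood at 6.08, 7.30 and 5.96 against 9.94, 9.11 and 10.24. Junb (2.04 ± 0.25), Fos (1.82 ± 0.37), Jun (1.57 ± 0.17), the small MAF factor Maff (1.54 ± 0.16) and Fosl2 (1.43 ± 0.18) rose as well. The member that fell was Maf (-0.62 ± 0.12), a large MAF factor. Fos and Fosb varied most within groups, and intact array 2 was the highest and ventilated array 2 the lowest of its group for both.

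In the EGR, NR4A and related early list 15 of 19 rose and none fell, with a median of 1.38. Egr1 went from 7.59, 8.16 and 6.95 to 10.65, 10.04 and 10.46 (2.82 ± 0.37). Myc, which drives growth genes, went from 6.92, 6.53 and 6.63 to 9.06, 9.39 and 9.35 (2.57 ± 0.17). The nuclear receptors Nr4a3 (2.17 ± 0.23), Nr4a1 (1.77 ± 0.27) and Nr4a2 (0.71 ± 0.18) rose in that order of size. So did Ier5 (1.62 ± 0.10), Ier2 (1.61 ± 0.17) and Zfp36 (1.70 ± 0.19), whose product speeds the decay of cytokine messages. Srf, the factor that drives many early genes, rose by 1.38 ± 0.16.

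Brakes on MAP kinase signalling rose with the early factors. Of 11 dual-specificity phosphatases 7 rose and none fell (median 0.53), led by Dusp8 (1.77 ± 0.15), Dusp16 (1.28 ± 0.12) and Dusp5 (1.15 ± 0.15). Krüppel-like factors split, with 4 of 17 higher and 2 lower. Klf5 (1.02 ± 0.16), Klf6 (0.98 ± 0.10) and Klf16 (0.81 ± 0.11) rose. Klf2, the flow-induced factor of endothelium, read 8.88, 8.26 and 8.53 in intact and 7.52, 7.57 and 7.50 in ventilated lungs, a fall of 1.03 ± 0.16. Controllers of transcription elongation and splicing rose in 8 of 15 members and fell in none. They included Brd2 (1.44 ± 0.08), a reader of acetylated histones, the cyclin Ccnl1 (1.37 ± 0.09) and Hexim1 (1.16 ± 0.14), which holds the elongation factor P-TEFb inactive.

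Genes driven by NRF2, a transcription factor activated by oxidants and electrophiles, rose in 10 of 16 members and fell in none, with a median of 0.6. Slc7a11, the cystine importer that supplies glutathione synthesis, read 4.46, 3.98 and 4.23 in intact lungs and 7.84, 9.36 and 8.38 in ventilated lungs (4.30 ± 0.34, adjusted p = 3.89e-06). All its intact values lay below the median of their arrays. Haem oxygenase Hmox1 went from 7.83, 7.64 and 7.68 to 10.41, 11.34 and 10.38. In both genes ventilated array 2 was the highest, and the other ventilated arrays still lay above every intact array.

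The glutathione-making enzyme subunits Gclc (2.17 ± 0.17) and Gclm (1.06 ± 0.17), sulfiredoxin Srxn1 (2.48 ± 0.23), Osgin1 (2.45 ± 0.24) and thioredoxin reductase Txnrd1 (1.76 ± 0.14) rose. Nqo1, a textbook NRF2 target, rose by 0.45 ± 0.10 only. Fth1, the ferritin heavy chain, stood at 0.10 and did not pass. The antioxidant response element, searched as TGACNNNGC, was present in 2 of the 7 available promoters of members that rose, in 0 of 4 of those that did not and in 12.3% of all genes. The hit of Txnrd1 is shown because it had the larger increase of the 2 members with a hit.
Txnrd1, chr10:82859104-82859132, plus strand: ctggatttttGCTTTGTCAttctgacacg
The capitals are the element read on the opposite strand.

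Metallothioneins bind zinc and respond to zinc, oxidants and glucocorticoids. Mt2 went from 10.54, 9.91 and 9.75 to 12.17, 12.28 and 12.23 (2.16 ± 0.19), and Mt1 rose by 1.31 ± 0.11. With the zinc transporters Slc39a14 (0.75 ± 0.14) and Slc30a4 (0.58 ± 0.10) and their zinc-sensing factor Mtf1 (0.38 ± 0.09), 5 of 10 in this list rose. Of 13 targets of glucocorticoids 8 were higher and 1 lower. Pdk4 (2.40 ± 0.29), Cebpd (1.25 ± 0.18) and Fkbp5 (0.99 ± 0.17) were higher. The glucocorticoid receptor Nr3c1 was the member that fell, by 0.28 ± 0.08, and Tsc22d3, a classical target, stood at -0.03.

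The integrated stress response lowers general translation and lets ATF4 drive amino acid supply. In this list 16 of 21 members rose and 1 fell, with a median of 0.87. Chac1, which degrades glutathione and is an ATF4 target, read 5.82, 5.72 and 5.47 in intact and 8.82, 9.19 and 8.87 in ventilated lungs (3.29 ± 0.22, adjusted p = 1.22e-06). Atf4 itself moved from 8.66, 8.82 and 8.65 to 10.13, 10.20 and 10.33. The arrays of the 2 groups lay more than 1 log2 unit apart in both genes.

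Ddit3, the pro-death factor CHOP, rose by 1.07 ± 0.08 and Ppp1r15a, which restores translation, by 1.44 ± 0.14. Sesn2 (1.86 ± 0.16), the mitochondrial folate enzyme Mthfd2 (2.06 ± 0.18), the serine enzyme Psat1 (1.5 ± 0.14) and asparagine synthetase Asns (1.12 ± 0.12) were higher. Vldlr, a lipoprotein receptor, fell by 0.50 ± 0.11. Of 16 amino acid transporters 7 rose and 2 fell. Slc7a5 (1.97 ± 0.15), Slc7a1 (1.67 ± 0.16) and Slc38a2 (1.49 ± 0.12) were among the risers beside Slc7a11. Slc7a7 (-0.59 ± 0.12) and Slc7a2 (-0.43 ± 0.11) fell.

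Enzymes that charge transfer RNAs rose in 9 of 18, among them Cars (1.05 ± 0.12), Nars (0.87 ± 0.12) and Tars (0.82 ± 0.10). Wars, the tryptophan enzyme that is also interferon-induced, fell by 0.28 ± 0.08. The endoplasmic reticulum chaperones moved less, with 5 of 19 higher and none lower and a median of 0.1. Hspa5 (BiP) rose by 1.00 ± 0.12, Dnajb9 by 0.84 ± 0.13 and Xbp1 by 0.62 ± 0.09. Hsp90b1 at -0.06, Calr at -0.05 and Pdia6 at -0.12 did not pass. Composite C/EBP-ATF sites, searched as TGATGNAA, were present in 3 of 15 promoters of risers, in 1 of 4 of members that did not pass, in the promoter of Vldlr and in 3.4% of all genes. The hits of Chac1 and Asns are shown because both genes rose more than 2-fold.
Chac1, chr2:119351039-119351066, plus strand: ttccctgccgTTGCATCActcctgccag
Asns, chr6:7693215-7693242, minus strand: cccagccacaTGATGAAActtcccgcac
The capitals are the composite letters, on the opposite strand in Chac1.

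Among p53 targets 10 of 22 rose and none fell. The cell cycle inhibitor Cdkn1a went from 8.61, 8.96 and 8.58 to 11.36, 11.71 and 11.42 (2.78 ± 0.20), and the kinase Plk3 from 6.67, 6.91 and 6.42 to 9.62, 9.47 and 9.36 (2.82 ± 0.16). Mdm2, the ligase that restrains p53, rose by 0.71 ± 0.09. Bbc3 at -0.07, Ccng1 at -0.02 and Eda2r at 0.01 were among the 12 that did not pass. Proliferation genes were near background, with 2 of 22 higher (Pcna at 0.80 ± 0.08 and Ccnb2 at 0.44 ± 0.10) and none lower. In the nuclear envelope list Lmna read 7.63, 7.62 and 7.30 against 8.09, 7.99 and 8.11, a rise of 0.55 ± 0.11 (adjusted p = 0.00497). Lbr rose by 0.40 ± 0.09, the nesprin gene Syne1 fell by 0.45 ± 0.10, and 13 of 16 did not pass, Lmnb1 at 0.17 among them.

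In the list of NF-kB subunits, feedback inhibitors and related genes 14 of 16 members rose and none fell, with a median of 0.7. The subunits Rel (1.04 ± 0.12), Rela (0.96 ± 0.10) and Nfkb2 (0.92 ± 0.10) rose beside the inhibitor Tnfaip3 (1.25 ± 0.10). The list members Bcl3 (2.06 ± 0.20) and Nfkbiz (1.15 ± 0.11) rose too. Among cytokines of the IL-1, IL-6, TNF and colony-stimulating families 13 of 23 rose and none fell. Il6 read 3.68, 3.91 and 3.92 in intact and 5.41, 5.73 and 6.89 in ventilated lungs (2.17 ± 0.30). Its intact values were below the array medians and its ventilated values wide apart, with array 3 the highest. Lif (1.30 ± 0.14), Tnf (1.13 ± 0.22), Il1b (1.04 ± 0.31) and the alarmin Il33 (0.89 ± 0.23) rose. Socs3, the feedback inhibitor of IL-6 signalling, went from 6.23, 6.64 and 6.30 to 8.33, 8.52 and 8.74. Csf2 at -0.25, Csf3 at 0.01 and Il10 at 0.00 did not pass. The cytokine count dropped to 8 without intact array 3 or without ventilated array 2.

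Chemokines moved one by one. Ccl3 (MIP-1 alpha) read 6.00, 6.31 and 5.71 in intact and 9.55, 9.31 and 9.81 in ventilated lungs (3.55 ± 0.36), and every ventilated array lay more than 3 log2 units above the median intact array. Ccl17 rose by 1.5 ± 0.23 and Ccl2 (MCP-1) by 1.18 ± 0.20. In all 5 of 17 CC chemokines rose, 3 without intact array 3. Of the CXC list 5 of 18 rose and 2 fell. Cxcl16 gained 0.84 ± 0.10 and Cxcl2 0.51 ± 0.16, while Cxcl12 lost 0.66 ± 0.12 and its scavenger receptor Ackr3 0.73 ± 0.15. Cxcl1 at 0.72 and Cxcl5 at 0.26 did not pass. The CXC count of 5 dropped to 2 without intact array 1 or 2 or ventilated array 1 or 2.

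In prostaglandin synthesis 3 of 15 members rose and 2 fell. Ptgs2 (COX-2) read 7.11, 8.23 and 7.69 against 12.14, 12.13 and 12.05, a difference of 4.43 ± 0.27 (adjusted p = 6.17e-07). The ventilated arrays agreed within 0.1 log2 units. The PGE2 synthase Ptges (0.59 ± 0.15) and receptor Ptger4 (1.16 ± 0.09) rose, and prostacyclin synthase Ptgis (-0.62 ± 0.12) and Ptgfr (-0.85 ± 0.12) fell. Saa3, an acute-phase protein, went from 5.17, 5.25 and 5.40 to 8.85, 8.61 and 8.14 (3.26 ± 0.32), whereas haptoglobin Hp fell by 0.41 ± 0.11 and 12 of 14 acute-phase genes did not pass. None of 14 complement genes passed in this limma fit. Coagulation genes rose in 5 of 13 and fell in 2. Tissue factor F3 (2.28 ± 0.17), thrombospondin Thbs1 (2.71 ± 0.19) and the urokinase receptor Plaur (1.98 ± 0.19) rose, while the anticoagulants Thbd (-0.65 ± 0.11) and Tfpi (-0.34 ± 0.08) fell.

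Of the interferon-related lists, guanylate-binding proteins fell in 6 of 10 and rose in none, with a median of -0.43. Gbp4 read 7.64, 6.45 and 6.85 in intact and 4.43, 6.16 and 5.75 in ventilated lungs (-1.54 ± 0.40, adjusted p = 0.0182), with ventilated array 1 far below the others. Its call was lost without intact array 1 (adjusted p = 0.0806) or without ventilated array 1 (adjusted p = 0.0673). The count of 6 dropped to 3 without intact array 1 or 3 and to 1 without ventilated array 1. Of 19 interferon-stimulated genes 4 fell, led by Rtp4 (-0.81 ± 0.11) and Xaf1 (-0.62 ± 0.11), 1 rose, the factor Irf1 (0.50 ± 0.11), and 14 did not pass. The immunoproteasome subunits Psmb9 (-0.72 ± 0.10), Psmb10 (-0.50 ± 0.09) and Psmb8 (-0.38 ± 0.10) fell. In the same complex 7 of 36 subunits rose, all of the regulatory particle, such as Psmd11 (0.61 ± 0.11) and Psmd7 (0.57 ± 0.09), 4 without intact array 2 or ventilated array 3.

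Growth factor signalling split by family. EGF ligands and receptors rose in 6 of 15 and fell in 1. Hbegf, which is shed from the cell surface to activate EGFR, read 7.90, 7.98 and 8.04 against 10.18, 10.23 and 10.38 (2.29 ± 0.13). Egfr (0.78 ± 0.10), its inhibitor Errfi1 (1.18 ± 0.13), Nrg1 (0.99 ± 0.15) and Tgfa (0.51 ± 0.11) rose, and Nrg2 fell by 0.45 ± 0.11. The VEGF and angiopoietin system fell in 9 of 15 members and rose in none, with a median of -0.49. Receptors Tek (-0.55 ± 0.11), Kdr (-0.50 ± 0.13), Tie1 (-0.49 ± 0.08) and Nrp1 (-0.49 ± 0.10) fell together with ligands Angpt2 (-0.91 ± 0.14), Vegfd (-0.72 ± 0.17) and Angpt1 (-0.64 ± 0.13). Vegfa stood at -0.04 and Flt1 at 0.09.

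Among vasoactive peptides adrenomedullin, Adm, read 5.86, 5.85 and 6.04 in intact and 9.35, 9.45 and 9.26 in ventilated lungs (3.44 ± 0.17), and shared the smallest adjusted p of all genes, 3.22e-07, with Map2k3os. One part of its receptor, Ramp2, fell (-0.62 ± 0.11) and another, Ramp3, rose (0.44 ± 0.12), while Calcrl stood at -0.34 and did not pass. Apelin (Apln, -0.70 ± 0.11) and its receptor Aplnr (-1.09 ± 0.19) fell, and so did Ace (-0.34 ± 0.08). In that list 2 of 17 rose and 5 fell, 3 without ventilated array 1.

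BMP, SOXF and Notch genes of vessels fell in 10 of 24 members and rose in 4. Tmem100, a BMP9 target of endothelium, went from 10.95, 10.99 and 11.11 to 9.12, 9.54 and 9.27 (-1.71 ± 0.12, adjusted p = 1.82e-06). The SOXF factor Sox18 (-1.21 ± 0.16), the Notch effector Hey1 (-1.16 ± 0.15), Id1 (-0.80 ± 0.13) and Smad6 (-0.71 ± 0.11) fell. Id3 rose by 0.97 ± 0.16, Hes1 by 0.64 ± 0.16, Bmp2 by 0.64 ± 0.14 and Jag2 by 0.38 ± 0.10, so close relatives such as Id1 and Id3 parted. The count of 4 risers dropped to 2 without intact array 1 or ventilated array 3. Transcription factors of lung mesenchyme fell in 9 of 16 and rose in none. Meox2 read 7.67, 7.42 and 7.48 against 6.27, 6.04 and 6.03 (-1.41 ± 0.10), followed by Tbx2 (-0.72 ± 0.10), Foxf1 (-0.70 ± 0.10), Tbx3 (-0.64 ± 0.10) and the ligand Wnt2 (-0.61 ± 0.10). Lrat, which stores retinol as esters, read 9.50, 9.41 and 8.37 against 7.58, 7.20 and 7.07 (-1.81 ± 0.30).

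Matrix genes were mostly lower or not called. Collagens fell in 9 of 44 and rose in 2, with Col6a3 (-0.95 ± 0.15), Col3a1 (-0.75 ± 0.16), Col1a2 (-0.71 ± 0.09) and Col1a1 (-0.61 ± 0.13) lower and Col12a1 higher (0.61 ± 0.13). The count of 9 dropped to 5 without intact array 1 or ventilated array 2. Lox, which crosslinks collagen and elastin, read 8.08, 8.61 and 8.44 against 9.37, 9.79 and 9.64 (1.22 ± 0.16), the only riser among 16 elastic fibre genes, of which 4 fell, 2 without intact array 1 or 2 or ventilated array 3. Matrix-cutting enzymes rose in 8 of 44 and fell in 4. Mmp19 (1.65 ± 0.13), Adamts4 (1.86 ± 0.17) and the inhibitor Timp1 (0.97 ± 0.14) rose, and Mmp2 (-0.82 ± 0.17) and Adamts5 (-0.44 ± 0.11) fell. The TGF-beta-activating integrin Itgb6 rose by 1.06 ± 0.14 and Itgav by 0.58 ± 0.10. Among YAP and TAZ targets, 6 of 22 rose and 4 fell. Ccn1 gained 1.52 ± 0.22, while Ccn2 at 0.21 and Ankrd1 at 0.68 did not pass.

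Epithelial injury genes rose in 8 of 14 and fell in none. Sprr1a, a cornified envelope protein, read 5.85, 5.52 and 5.14 in intact and 7.49, 7.80 and 8.22 in ventilated lungs (2.33 ± 0.34). The simple epithelial keratins Krt18 (1.43 ± 0.18), Krt8 (1.34 ± 0.17) and Krt19 (0.86 ± 0.14) rose, while the basal keratins Krt14 at 0.09 and Krt17 at 0.21 did not pass. Among claudins, the seals of tight junctions, Cldn4 went from 7.02, 6.70 and 6.40 to 8.22, 9.29 and 8.77 (2.05 ± 0.27). Cldn7 (0.88 ± 0.15) also rose, endothelial Cldn5 (-0.68 ± 0.11), Cldn1 (-0.76 ± 0.11), Cldn8 (-0.92 ± 0.20) and Cldn10 (-0.45 ± 0.09) fell, and alveolar Cldn18 stood at 0.01. Chloride and sodium handling moved little. Cftr rose by 0.97 ± 0.15 and Nedd4l by 0.49 ± 0.10 among 4 risers of 13, 2 without intact array 2 or 3, and the sodium channel subunits Scnn1a at 0.17, Scnn1b at -0.03 and Scnn1g at -0.20 did not pass.

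In metabolism, cholesterol synthesis rose in 6 of 13 members and fell in none, with Cyp51 (1.54 ± 0.18), Pmvk (1.46 ± 0.16) and Hmgcs1 (1.08 ± 0.14) leading. Of 18 hypoxia-induced and glycolytic genes 5 rose, led by the glucose transporter Slc2a1 (1.14 ± 0.15), and 3 without intact array 2 or 3 or ventilated array 1. Car9 at 0.07 and Pkm at 0.06 did not pass. Respiratory chain subunits and ribosomal proteins lay below the background share of calls, with 3 of 59 (all lower) and 5 of 67 (4 higher) called. Respiratory chain differences were small but mostly negative, with a median of -0.15 and 6 of 59 positive. For 18 of the 59 the ventilated arrays all lay below the intact ones, against 16.8% of all genes. Ribosomal differences were balanced, with 33 of 67 positive. Without 1 array the respiratory count of 3 calls ran from 0 (intact array 3, ventilated array 2 or 3) to 5 (ventilated array 1). The ribosomal count of 4 was 0 without ventilated array 2 and 2 without intact array 2 or 3, ventilated array 3 or wild type ventilated array 1.

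The compartment lists hold markers of cell types, read in whole-lung RNA. They give the level of those markers and do not show which cells carried the response. Neutrophil markers rose in 13 of 17 members and fell in none, with a median of 1.21. Their mean was 6.64, 6.72 and 6.13 in the intact and 7.61, 7.67 and 7.61 in the ventilated Zmpste24-/- arrays, so the groups did not overlap. Il1r2, the IL-1 decoy receptor, rose by 2.40 ± 0.27, the collagenase Mmp8 by 2.32 ± 0.27, the lectin receptors Clec4d by 1.98 ± 0.17 and Clec4e by 1.49 ± 0.14, Cxcr2 by 1.48 ± 0.28 and S100a8 by 1.21 ± 0.26. The lineage marker Ly6g at 0.50 and the granule genes of immature neutrophils, Camp at 0.17, Ngp at 0.21 and Ltf at -0.39, did not pass. These markers moved beside the inflammatory genes above, several of which neutrophils also make, and their part in those results was not tested.

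**Figure D3:**
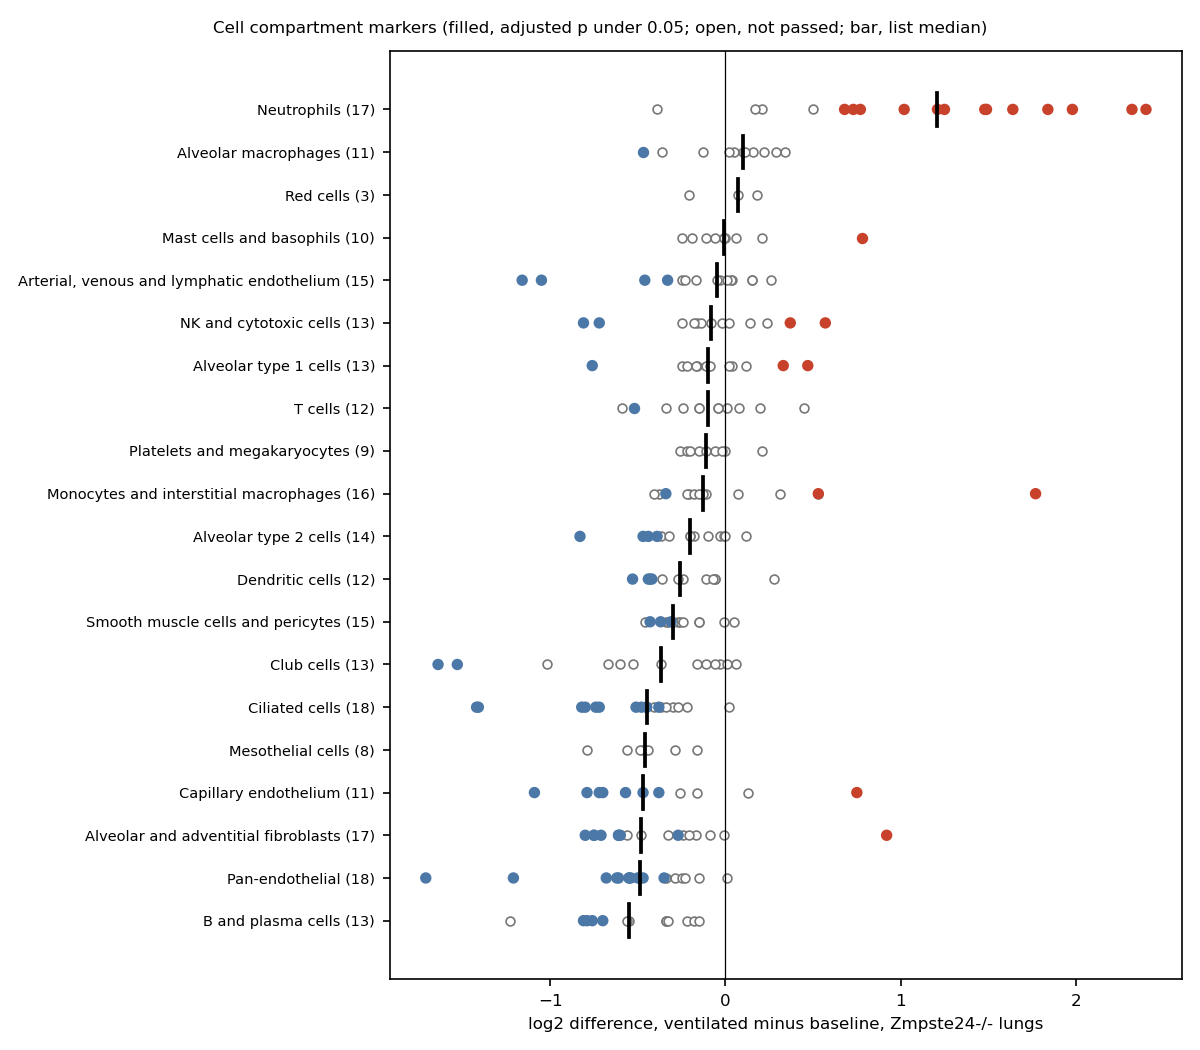
Log2 difference, ventilated minus intact Zmpste24-/- lungs, of every measured marker of 20 cell compartments (number in brackets), with filled points at adjusted p under 0.05 and a bar at the list median. Neutrophil markers lie to the right with a median of 1.21, and B cell, endothelial, fibroblast and ciliated cell markers lie to the left.

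Endothelial markers fell widely. Of 18 pan-endothelial markers 12 fell and none rose, with a median of -0.49, and of 11 capillary markers 7 fell and 1, the kinase Sgk1 (0.75 ± 0.10), rose. Pecam1 (-0.35 ± 0.09), Cd34 (-0.61 ± 0.11), Egfl7 (-0.55 ± 0.09) and Erg (-0.47 ± 0.13) fell, whereas Cdh5 (VE-cadherin) at -0.15 and Esam at 0.01 did not pass. Capillary markers Aplnr (-1.09 ± 0.19), Kit (-0.79 ± 0.15), Fibin (-0.57 ± 0.12) and Car4 (-0.47 ± 0.11) were lower. Among 15 arterial, venous and lymphatic markers 4 fell, led by Hey1 and the venous factor Nr2f2 (-1.05 ± 0.10), and Vwf stood at -0.17.

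Fibroblast markers fell in 8 of 17 and rose in 1, the lipid droplet protein Plin2 (0.92 ± 0.11). Itga8 (-0.80 ± 0.10), Inmt (-0.75 ± 0.13) and the collagens named above were lower, while Pdgfra at -0.01 and Dcn at -0.21 did not pass. Of 15 smooth muscle and pericyte markers 3 fell, 1 without intact array 3 or ventilated array 1, and Acta2 at -0.27 did not pass. None of 8 mesothelial markers passed, with differences from -0.79 to -0.16.

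In alveolar epithelium the surfactant genes were not called. Sftpc at -0.03, Sftpb at -0.01 and Sftpa1 at 0.00 did not pass. Sftpc lay close to the highest value of each array (13.42 to 13.47), as did the club cell gene Scgb1a1, so a change there may not be measurable. Among 14 type 2 markers 4 fell, Etv5 (-0.83 ± 0.09), Lpcat1 (-0.47 ± 0.10), Slc34a2 (-0.44 ± 0.11) and Nkx2-1 (-0.39 ± 0.12), 2 without ventilated array 2 or 3. Type 1 markers gave 2 higher (Gprc5a at 0.47 ± 0.09 and Lmo7 at 0.33 ± 0.10) and 1 lower, Rtkn2 (-0.76 ± 0.12), of 13, and Ager stood at 0.04.

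In the airway, ciliated cell markers fell in 11 of 18 and rose in none, with a median of -0.45. Sntn, a protein of the ciliary tip, read 8.63, 8.07 and 8.37 in intact and 7.01, 6.88 and 6.94 in ventilated lungs (-1.41 ± 0.16). Bbof1 went from 8.05, 7.85 and 7.66 to 6.00, 6.70 and 6.60, and the axonemal genes Tekt4 (-0.82 ± 0.15), Dnah5 (-0.80 ± 0.19), Hydin (-0.74 ± 0.16) and Rsph4a (-0.72 ± 0.13) fell. Foxj1, the master factor of motile cilia, stood at -0.41 and did not pass. The list mean was 8.07, 7.65 and 7.80 in intact and 7.24, 7.26 and 7.34 in ventilated Zmpste24-/- lungs. Wild type lungs lay at 7.37 to 7.74 when intact and 7.46 to 7.67 when ventilated, all above the ventilated Zmpste24-/- arrays. None of the 18 was called in wild type lungs, where the list median was -0.01. None passed the test of the difference between genotypes, which does not show that they responded alike. The median difference between genotypes was -0.52. The count of 11 dropped to 7 without ventilated array 3.

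Of 13 club cell markers only Chad (-1.64 ± 0.34) and Cckar (-1.53 ± 0.16) fell, and Scgb1a1 stood at -0.03. Chad read 9.92, 8.79 and 9.64 against 7.77, 7.82 and 7.84. The mean of the club list varied from 8.77 to 10.46 among intact and from 9.06 to 9.61 among ventilated Zmpste24-/- arrays, with intact array 2 the lowest, so this mean differed between arrays of 1 group. What moved it, and its part in the ciliated result, was not tested. An adipocyte list varied in the same way, from 5.97 to 7.57 in intact lungs, with 1 of 10 members called.

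The other leukocyte lists had smaller shares of called members than the neutrophil list. B and plasma cell markers fell in 4 of 13 and rose in none (median -0.55), with Cd22 (-0.81 ± 0.18), Ms4a1 (-0.79 ± 0.21), Fcer2a (-0.76 ± 0.16) and Cd79a (-0.70 ± 0.22), 2 without ventilated array 1 or 3. Of 12 T cell markers 1 fell (Cd8a, -0.52 ± 0.15). NK cells gave 2 higher and 2 lower of 13, with a median of -0.08. Il2rb (adjusted p = 0.0123 in limma) and Klre1 (adjusted p = 0.0339) were higher, and Gzma (-0.81 ± 0.23) and Ncr1 (-0.72 ± 0.22) lower. Without any 1 of the 6 Zmpste24-/- arrays 0 or 1 of the 2 lower markers stayed called, 0 without intact array 1 or ventilated array 1 or 3. Antigen presentation genes H2-Ab1 (-0.44 ± 0.12), H2-Eb1 (-0.42 ± 0.10) and Ciita (-0.43 ± 0.12) and the receptor Cd209a (-0.53 ± 0.16) were the 4 of 12 dendritic cell markers that fell, between 1 and 2 of them without intact array 1, 2 or 3 or ventilated array 2 or 3. Among 11 alveolar macrophage markers 1 fell (Car4, which capillaries share) and Marco stood at 0.05. No platelet or red cell marker passed.

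Clock genes Dbp and Per3 had the 2 largest decreases of all named genes, and Arntl was among the 15 largest increases. CLOCK and ARNTL (BMAL1) activate the Per, Cry, Nr1d and Dbp genes through E-boxes, NR1D1 and NR1D2 repress Arntl in turn, and the parts peak at opposite times of day in the lung as elsewhere. In a list of 6 (the activators Arntl, Clock, Npas2 and Rora with the repressors Nfil3 and Cry1) 5 rose and none fell (median 1.24). Of the 11 other repressors and output factors 8 fell and none rose (median -0.93). The repressors were thus on both sides, with Cry1 (0.64) and Nfil3 higher and Cry2 lower. Arntl read 5.86, 6.16 and 5.99 in intact and 9.08, 8.70 and 8.87 in ventilated Zmpste24-/- lungs (2.88 ± 0.26, adjusted p = 1.11e-05). Its partners Npas2 (1.73 ± 0.32) and Clock (0.75 ± 0.10) rose, as did Nfil3, the repressor of D-box genes, from 6.91, 6.64 and 6.61 to 9.26, 9.22 and 9.57.

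Dbp, an activator of D-box genes, went from 9.81, 9.44 and 9.64 to 6.68, 6.72 and 6.91, which is 7.24-fold lower (-2.86 ± 0.39, adjusted p = 0.000244). Per3 went from 8.98, 8.77 and 8.80 to 6.55, 6.56 and 6.77. Nr1d2 (-1.29 ± 0.27), Nr1d1 (-1.20 ± 0.31), Tef (-1.03 ± 0.14), Bhlhe41 (-0.93 ± 0.24), Hlf (-0.89 ± 0.14) and Cry2 (-0.67 ± 0.14) fell. Per1, which stress hormones also induce, at -0.18, Ciart at 0.02 and Bhlhe40 at 0.41 did not pass.

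The wild type arrays place these levels. Intact wild type lungs had Arntl at 7.47, 8.49 and 8.06 and Dbp at 9.45, 7.45 and 7.94, and ventilated wild type lungs had Arntl at 7.62, 8.75 and 8.42 and Dbp at 8.03, 6.90 and 7.12. For Arntl the intact Zmpste24-/- arrays were the lowest of all 12, and the lowest wild type array lay more than 1 log2 unit above them. For Dbp 2 of the 3 intact Zmpste24-/- arrays lay within 0.2 of wild type intact array 1. In both wild type groups array 1 had the lowest Arntl and the highest Dbp, so lungs of 1 group were not alike in these genes. The response of Arntl differed between genotypes by 2.63 ± 0.37 (adjusted p = 0.0159) and that of Nfil3 by 1.48 ± 0.21 (adjusted p = 0.0159). Those of Dbp (-1.92 ± 0.55, adjusted p = 0.167) and Per3 (-1.55 ± 0.39, adjusted p = 0.118) did not pass. In wild type lungs 3 of the 11 repressors and output factors were called higher and none lower (median -0.07). The list of 6 with the activators had 2 called higher and none lower there (median 0.23). The hour of collection, which sets the level of every clock gene, was not tested.

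**Figure D4:**
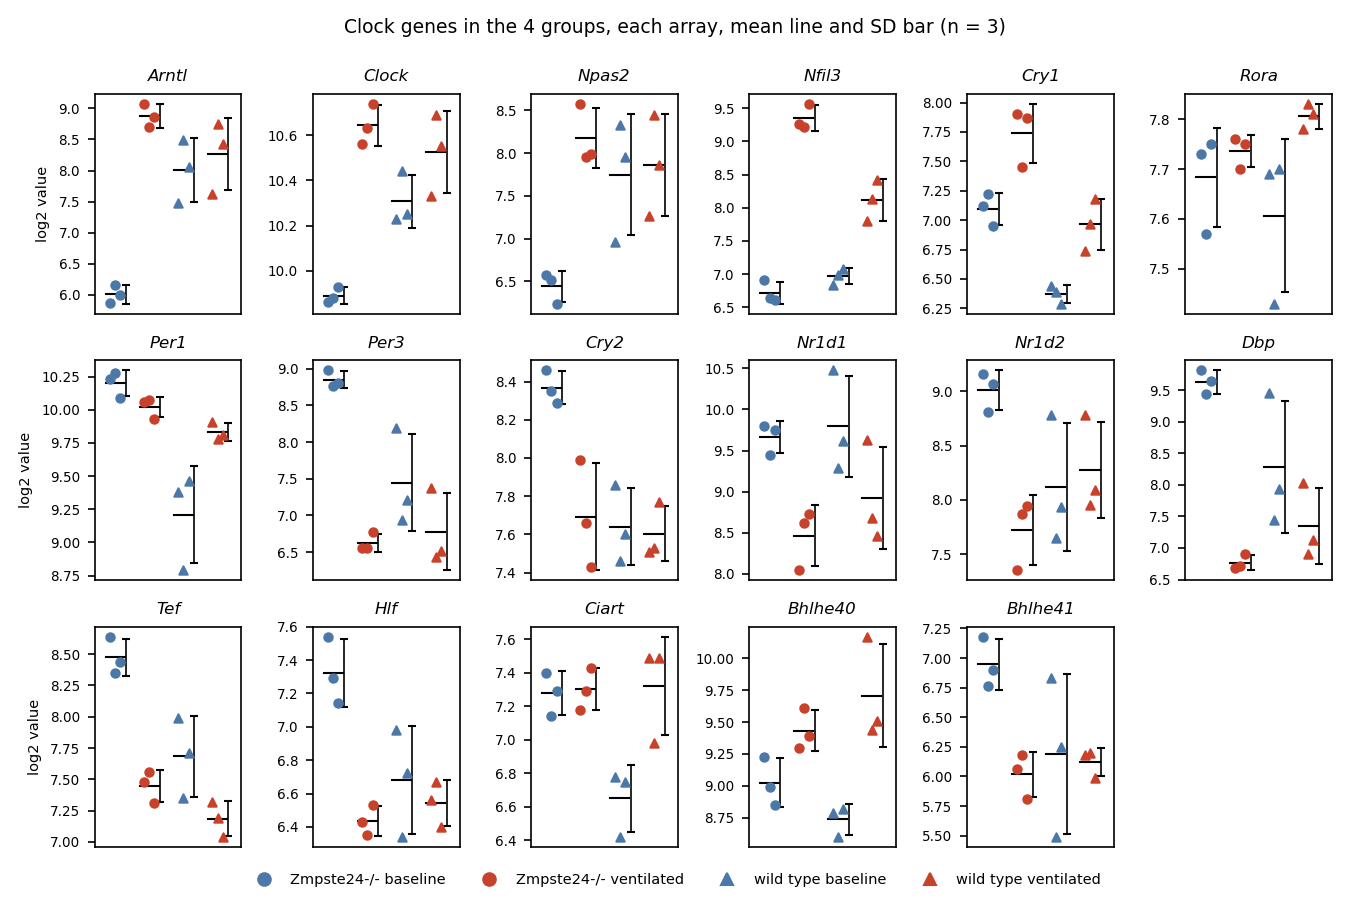
Deposited log2 values of 17 clock genes in the 4 groups, 1 point per array, circles for Zmpste24-/- and triangles for wild type, with mean line and SD bar (n = 3). For Arntl, Clock and Npas2 the intact Zmpste24-/- arrays are the lowest group, and for Arntl the intact and ventilated wild type arrays overlap; vertical axes differ between panels and do not start at 0.

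The Per3 promoter is shown because it holds a pair of matches to the D-box, the type of site that DBP and NFIL3 bind. Per3, Dbp and Nfil3 all moved in this comparison, but binding at these letters was not tested. TTATGNAA was present in 1 of 8 clock promoters whose genes fell, in 0 of 5 of the risers and in 3.46% of all genes. Of members that did not pass it was present in 1 of 2 of the repressor and output list (Per1) and 0 of 1 of the other list.
Per3, chr4:151044806-151044880, minus strand: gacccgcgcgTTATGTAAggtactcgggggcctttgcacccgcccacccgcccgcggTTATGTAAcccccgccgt
The E-box CACGTG was present in 2 of the 8 promoters of members that fell (Tef and Bhlhe41), in 1 of 5 of the risers (Cry1) and in 7.83% of all genes. Of members that did not pass it was present in 2 of 2 of the repressor and output list and 0 of 1 of the other list.

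Small RNA genes lie outside the families above and were chosen after their values were seen. Of 483 microRNA genes 23 were higher and 16 lower, below the background share. Among the risers were 4 neighbours from the Mir17 cluster of chromosome 14, a polycistron known as a Myc target, and the pair Mir23a and Mir27a of chromosome 8. No values are given here for their neighbours Mir19b-1, Mir92-1 and Mir24-2, so the clusters as wholes are not described. A part of Myc in these rises was not tested. The mature sequences below (RefSeq, GRCm38.p6) carry the seed, bases 2 to 8, in capitals, and show which of these neighbours share one.
miR-17-5p: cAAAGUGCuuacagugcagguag
miR-20a-5p: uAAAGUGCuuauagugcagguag
miR-18a-5p: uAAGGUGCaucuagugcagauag
miR-19a-3p: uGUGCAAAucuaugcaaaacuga
miR-23a-3p: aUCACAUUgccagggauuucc
miR-27a-3p: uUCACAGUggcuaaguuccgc
The array gives a value for the gene and assigns it to neither arm. Mir17 and Mir20a share a seed and the other 4 do not. Mir18 read 4.87, 5.11 and 5.23 in intact and 5.80, 6.85 and 6.42 in ventilated lungs (1.29 ± 0.20, adjusted p = 0.000675). Mir19a went from 3.29, 3.26 and 3.41 to 4.18, 4.81 and 4.45 (1.16 ± 0.14), Mir20a gained 0.83 ± 0.17 and Mir17 0.60 ± 0.15. All 4 rose, from intact levels below the array medians, and ventilated array 2 was the highest for each. Mir27a went from 7.52, 7.56 and 7.28 to 8.29, 8.72 and 8.83 (1.17 ± 0.13) and Mir23a gained 0.88 ± 0.18.

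The last question was whether the response differed from that of wild type lungs. In wild type lungs 1597 genes (7.2%) were called, 815 higher (3.67%) and 782 lower (3.53%). The count was 799 without ventilated array 3 and 923 when these 6 arrays were fitted alone. Of the 3641 calls in Zmpste24-/- lungs 1056 were also called in wild type lungs, which is 29% of the former and 66.1% of the latter, and 1053 of the shared calls had the same sign. The test of the difference itself passed for 70 genes (0.316%), 59 (0.266%) with the more positive response in Zmpste24-/- lungs and 11 (0.0496%) with the more negative. At an unadjusted p under 0.05 it passed for 2598 genes (11.7%). The count of 70 was 118 without wild type intact array 1, 82 without wild type ventilated array 1 and 61 without ventilated Zmpste24-/- array 1. Leaving out any of the other arrays gave 8 to 26, the lowest without intact Zmpste24-/- array 1.

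Ahr, the aryl hydrocarbon receptor, moved in opposite directions. It read 9.13, 9.25 and 9.16 in intact and 9.94, 10.10 and 10.04 in ventilated Zmpste24-/- lungs (0.85 ± 0.09). Wild type values were 9.69, 9.85 and 9.70 and then 9.47, 9.28 and 9.49 (-0.33 ± 0.09), and the responses differed by 1.18 ± 0.12 (adjusted p = 0.00401). Adm had a larger rise in Zmpste24-/- lungs (difference 2.26 ± 0.25, adjusted p = 0.00401). Intact wild type lungs started higher, at 6.55, 7.29 and 7.11, and ended lower, at 8.06, 7.92 and 8.50.

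Brd2 (0.99 ± 0.12), Foxq1 (1.68 ± 0.22), Ier5 (1.10 ± 0.15), Ccnl1 (0.89 ± 0.12), Map2k3os (1.17 ± 0.13) and Hbegf (1.32 ± 0.19) also rose more in Zmpste24-/- lungs. Ahr, Adm, Map2k3os, Brd2, Foxq1, Ier5 and Nfil3 kept the call with any of the 12 arrays left out, Arntl and Ccnl1 in 11 fits and Hbegf in 10. Of the heat shock list 3 members differed, Dnajb1 by 2.14 ± 0.31 (called in 10 of 12 fits), Chordc1 and Bag3 (3 of 12 fits each). The early list had 4, Ier5, Nr4a1 (called in 5 of 12 fits), Btg2 (3 of 12) and Ier2 (2 of 12). Nr4a1 read 9.52, 10.24 and 10.36 in intact and 9.92, 9.01 and 9.17 in ventilated wild type lungs, so it rose in Zmpste24-/- lungs and was not called in wild type (-0.67 ± 0.27).

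Antioxidant genes did not pass this test, which does not show that they responded alike. The differences between genotypes were 0.12 ± 0.48 for Slc7a11, 0.24 ± 0.24 for Gclc and 0.64 ± 0.42 for Hmox1, and none of 16 NRF2 genes passed. The metallothionein, keratin, pan-endothelial and neutrophil lists also had no member that passed the test of the difference. Pan-endothelial medians were -0.49 in Zmpste24-/- and -0.48 in wild type lungs. For neutrophil markers the medians were 1.21 and 0.63, with 6 of 17 called in wild type lungs.

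**Figure D5:**
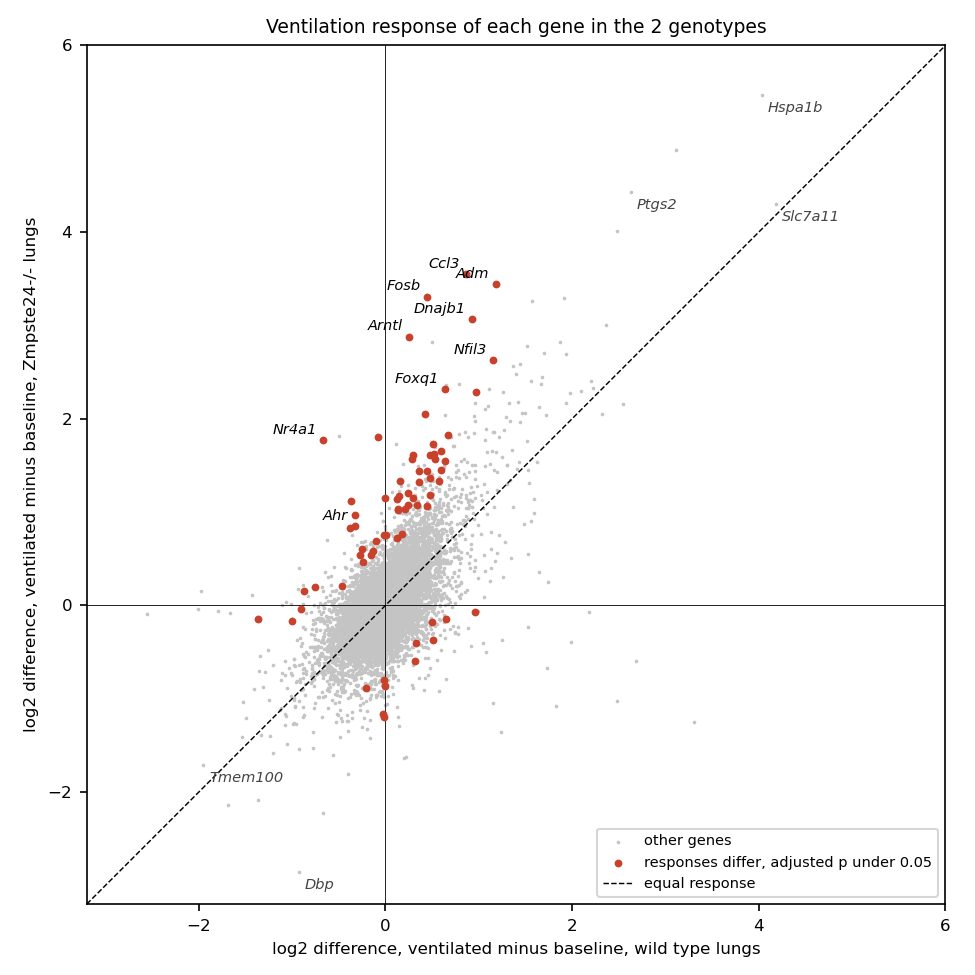
Log2 difference, ventilated minus intact, of each of 22180 genes in wild type lungs (horizontal) and Zmpste24-/- lungs (vertical), with the 70 genes whose responses differed in red and the line of equal response dashed. Adm, Ccl3, Fosb, Dnajb1 and Arntl lie far above the line, and Slc7a11 lies close to it.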

How the data were processed

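RNA from 12 whole mouse lungs was measured on expression arrays (100 ng input). The authors deposited log2 values, and per the submitters' processing notes RMA and limma were used, with versions not given in the sources used here. Of 41345 probes, 23521 had 1 gene symbol, 1814 had several and 16010 had none. Only those with 1 symbol were used, the brightest for each of the 1082 genes with several, which left 22180 genes. Of the 23521 probes 23328 had a gene identifier found in RefSeq, and the RefSeq symbol of that identifier was taken. Number of arrays limits the precision.

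A group-means model on all 12 arrays (limma 3.58.1, R 4.3.3) gave each difference, with Benjamini-Hochberg adjustment over all genes and 8 residual degrees of freedom; it was tested on simulated data. With 3 arrays a group an exact permutation test cannot go below p = 0.1. The labels call replicates biological without naming separate animals, so p-values measure the spread between these samples. Same-numbered arrays had correlations of deviations from -0.15 to 0.15, and differently numbered arrays from -0.25 to 0.23. No pairing by number was seen, which with 3 arrays a group does not show that there was none.

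Members and gene lists (54 families, 20 compartments, 7 other tissues) were chosen with earlier results of these data known. Named genes are Zmpste24, Lmna, the 15 largest increases and decreases among called genes whose arrays did not overlap (predicted genes and small RNAs left out), the 10 smallest adjusted p of the difference between genotypes, and list members, with priority to the 4 smallest adjusted p and to any against its list's direction. Alternatives were other scaling, variance models, filters, probe choice, a replicate block, the 6 arrays alone, and each array left out. Promoters and microRNAs came from RefSeq tables (GRCm38.p6). Figures used Python 3.11.15 and matplotlib 3.10.9.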

Additional observations from a re-analysis of the deposited data

Results flagged for a closer look

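The ventilation response differed between genotypes by the test of the difference itself for 70 genes, all at an adjusted p of 0.0478 or less in limma. Differences are the response in Zmpste24-/- lungs minus that in wild type lungs on the log2 scale. Among early factors and their regulators they were 2.86 for Fosb, 2.44 for Nr4a1, 1.49 for Btg2, 1.31 for Ier2, 1.28 for Jun, 1.10 for Ier5 and 1.15 for the phosphatase Dusp5. Chaperones and stress genes gave 2.14 for Dnajb1, 1.17 for Chordc1, 0.97 for Bag3, 1.08 for Ppp1r15a and 0.62 for Ddit3. The clock genes gave 2.63 for Arntl and 1.48 for Nfil3.

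Secreted mediators and signalling genes gave 2.69 for Ccl3, 2.26 for Adm, 1.32 for Hbegf, 0.85 for Nfkbiz, 0.76 for Sgk1 and 1.04 for the protease Mmp19. Regulators of transcription gave 1.68 for Foxq1, 1.30 for Id3, 1.18 for Ahr, 0.99 for Brd2 and 0.89 for Ccnl1, and the antisense gene Map2k3os gave 1.17. Whether the array probe reads Map2k3os apart from its partner gene was not tested. Bmp4 (1.03) and Tcf21 (0.84) are vessel and fibroblast genes that were not called in Zmpste24-/- lungs (0.16 and -0.17) and fell in wild type lungs (-0.87 and -1.0). Of the 12 fits that left out 1 array, Ddit3 kept its call in 0, Ccl3 and Sgk1 in 1, Bmp4, Ier2 and Nfkbiz in 2, Bag3, Btg2, Chordc1, Dusp5, Id3, Jun, Mmp19, Ppp1r15a and Tcf21 in 3, Fosb in 4 and Nr4a1 in 5. The other named genes kept it in 10 or more. With the replicate number as a block the calls of Bag3, Btg2, Ccl3, Ddit3, Dusp5, Fosb, Jun, Nfkbiz, Ppp1r15a and Tcf21 were lost.

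Probes without a gene name lie outside the comparisons. Of 16010 such probes 610 (3.81%) were called in Zmpste24-/- lungs, 333 higher and 277 lower, and 209 in wild type lungs.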

How the results depend on the processing

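The count of 3641 genes in Zmpste24-/- lungs stayed within 1.5 times under every alternative run, from 2432 to 3774 with 1 array left out and at most 4804 with array weights. Of 460 called members of the lists and named genes none changed sign in any fit. Between 357 and 450 kept the call with 1 array left out, lowest without ventilated Zmpste24-/- array 3, and 433 kept it with array medians subtracted or with quantile normalization. Among genes named above, Insr lost its call in 10 of the 12 fits, Cd209a in 7, Lmo7, Ncr1 and Nkx2-1 in 6, and Cd79a, Cd8a, Ciita, Cxcl2 and Wars in 5. Erg, Gzma, Igfbp5, Il1b, Jag2 and Klre1 lost it in 4. Hes1, Hp, Icam2, Kdr, Ms4a1, Nr1d1, Nr3c1, Ptges and Slc7a2 lost it in 3. Ace, Adamts5, Bhlhe41, Gbp4, H2-Ab1, Il33, Nr4a2, Nrg2, Pecam1, Psmb8, Ramp3 and Slc34a2 lost it in 2. H2-Eb1, Il2rb, Mtf1 and Tfpi lost it in 1. Ell2, not called at -0.34 with the brightest probe, was 0.49 with the mean of its probes (adjusted p = 0.00643 in limma); the cause was not tested. The wild type count of 1597 was 923 with the 6 arrays alone and ran from 799 to 1598 with 1 array left out. The 70 genes that differed between genotypes became 152 without genes under the median of expression, 26 with quantile normalization, 164 with array weights, and from 8 to 118 with 1 array left out; the cause was not tested. No pairing of the samples by replicate number was seen. With the replicate block 3479, 1463 and 43 genes were called in the 3 comparisons. Depth does not apply to arrays: genes such as Il6, Slc7a11 and Mir19a read below the array median when intact, and signal over background was not analysed here. Hspa1a and Hspa1b cannot be separated.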

Other observations

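Smaller families held single strong members. Called shares of 16.7% for tubulins and 14.3% for the BCL2 family were near the 16.4% of all genes, so their counts do not set these families apart. Tubulins rose in 2 of 12, Tubb6 by 1.27 ± 0.19 and Tuba1c by 1.15 ± 0.11 (limma adjusted p = 1.35e-05 for the latter). The survival factor Mcl1 read 10.18, 10.19 and 10.30 in intact and 11.04, 11.09 and 11.16 in ventilated Zmpste24-/- lungs (0.87 ± 0.08), 1 of 2 risers among 14 BCL2-family genes. Icam1, the leukocyte receptor of endothelium, rose by 0.93 ± 0.08 and Icam2 fell by 0.43 ± 0.11 among 11 adhesion molecules, of which 3 rose and 1 fell. The insulin signal adaptor Irs2 rose by 1.14 ± 0.13, while Ghr (-0.45 ± 0.10), Igfbp5 (-0.84 ± 0.24) and Insr (-0.26 ± 0.08) fell in a list of 15. That count of 3 was 1 without intact array 1 or ventilated array 2 or 3.

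Cytochrome P450 genes gave 2 higher and 5 lower of 90, with Cyp4f39 (1.08 ± 0.16) higher and Cyp4f13 (-0.69 ± 0.13) lower. Their called share of 7.78% lay below the 16.4% of all genes, and the 15.0% of histone genes was near it. Histone genes gave 1 higher and 5 lower of 40, and the 5 became 2 without intact array 2 or ventilated array 1, 3 without ventilated array 2 and 1 without ventilated array 3. Integrins gave 4 higher and 4 lower of 23, the 4 higher becoming 2 without intact array 3 or ventilated array 2. Monocyte and interstitial macrophage markers gave 2 higher and 1 lower of 16, mast cell markers 1 of 10 (Hdc, 0.78 ± 0.17) and squamous markers 2 lower of 9. Retinoid genes gave 1 higher (Aldh1a3, 0.44 ± 0.09) and 2 lower of 15, Lrat and Rarb (-0.45 ± 0.10).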
